A study of Homo sapiens with 12 samples.

Results

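RBFOX1, RBFOX2, RBFOX3, NOVA1, NOVA2, PTBP1, PTBP2, SRRM4, MBNL1 and MBNL2 encode proteins that decide which exons a neuron keeps. These 10 genes were chosen by symbol and looked up in 5 deposited tables of knockdown against control. Those tables hold only what the authors called changed. They hold 4720 gene names in all, with the splicing entries that lack a gene counted together as a single name. Of the 10, 7 were listed in at least 1 table and 3 (RBFOX3, PTBP1 and MBNL1) in none. The share of all genes named in at least 1 table was not worked out, so nothing particular to the members is read from the 7. Shares of all genes are given below for each kind of change. The cells were cortical neurons induced by NGN2 overexpression from the human embryonic stem cell line WA01, and all groups share that line and that induction. They carried either a scrambled hairpin RNA (shControl, labelled WT) or a hairpin against TDP-43 (shTDP-43) for 7 days. TDP-43 is the RNA-binding protein lost from the nucleus in amyotrophic lateral sclerosis and frontotemporal dementia. RNA-seq and 3' end-seq, an assay of transcript ends, had 3 libraries per group each, 12 in all. No label says that the 3 came from separate cultures, so p-values may reflect only technical variation. The tables give no value per library, so depth, the spread between replicates, the levels of these genes, of TARDBP and of neuronal marker genes were not analysed here.

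PTBP1 is known to keep neuronal exons out of transcripts in dividing cells. As neurons form, PTBP1 gives way to its paralog PTBP2, and SRRM4 promotes microexons, the very short exons typical of neuronal transcripts. RBFOX, NOVA and MBNL proteins then act on later exon choices, each promoting or blocking an exon according to where on the transcript it binds. Many such regulators also act on exons of their own transcripts or of each other's, so a change in their splicing can change which protein forms are made.

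Splicing was the layer in which most of the listed members appeared. A cluster is a set of introns that share splice sites, and each intron has a share of the cluster's reads. The authors' deposited tables gave clusters for 6 members (NOVA1, NOVA2, PTBP2, SRRM4, RBFOX2 and MBNL2). Their 8 clusters held 48 introns, of which 18 had a higher share after knockdown, 29 a lower share and 1 a change of 0. Among all RefSeq protein-coding genes, 11.2% were named in the splicing tables. That share rises with gene length, and 7 of the 10 members are over 150000 nt long. Of RefSeq protein-coding genes over that length 22.9% were listed, and of the 7 members 4 were. How many genes were expressed and tested is not known from the tables, so nothing particular to the members is read from these shares. The 3' end-seq polyadenylation table named 9.47% of the same RefSeq genes and 1 of the 10 members (RBFOX1). The cryptic site table named 1.94% of them and 1 member (SRRM4), and for polyadenylation by RNA-seq these were 4.07% and 0 members.

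**Figure D1:**
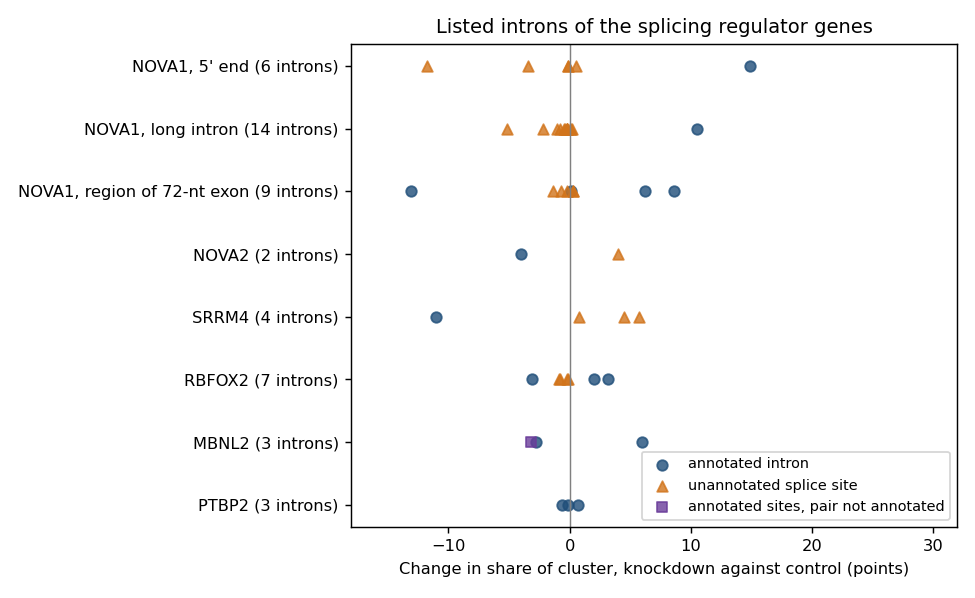
Each point is 1 listed intron of a member gene, placed by its change in share of its cluster (x axis, percentage points, knockdown against control) and grouped by cluster (y axis). Annotated introns of NOVA1 lie at both ends, from -13.1 to 14.9 points, while the 3 introns of PTBP2 lie within 0.7 points of 0.

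A change is given in percentage points of the cluster, positive for a higher share in the knockdown. The subtracted group is not named in the tables. The sign was read from STMN2 and UNC13A, whose introns into unannotated 3' splice sites are known to appear when TDP-43 is lost and gained 44.9 and 21.8 points there, per the authors' deposited table. The same STMN2 intron was listed again in a cluster labelled with the other strand, at 54.2 points in the authors' deposited table. The authors' adjusted p belongs to a whole cluster, so a single intron carries no test of its own, and introns of 1 cluster are not independent because their changes sum to 0. The share before knockdown is not given.

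NOVA1, a neuronal RNA-binding protein that regulates exons of synaptic genes and is known to act on an exon of its own transcript, had the most introns of any member. Its 3 clusters and 29 introns adjoin each other on the minus strand of chromosome 14 (hg38), from 26597301 near the gene's start to 26448963 near its end. At least 3 clusters were listed for 87 of the 2411 genes in the splicing tables (3.61%). In 2 of the NOVA1 clusters the annotated intron gained share and introns with unannotated splice sites lost it. In the remaining cluster an annotated exon of 72 nt was skipped less.

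The 72-nt exon spans 26472320 to 26472391, 125642 nt from the first base of the RefSeq gene. In the authors' deposited table the intron that skips it, from 26448963 to 26479977, changed by -13.1 points. The intron before the exon changed by 8.6 points and the intron after it by 6.2 points in the authors' deposited table. All 3 introns around the exon thus moved toward its inclusion. The cluster had 9 introns and an adjusted p of 8.85e-07 in the authors' deposited table, the smallest of any member cluster and rank 133 of 2994. The other 6 introns of that cluster, 5 of them with an unannotated splice site, changed by between -1.4 and 0.3 points in the authors' deposited table.

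At the 5' end of NOVA1 the annotated intron from 26595553 to 26597301 gained 14.9 points, the largest intron change of any member, in the authors' deposited table. Introns from unannotated 5' splice sites at 26596573 and 26596424 to the same 3' splice site had changes of -11.8 and -3.4 points, again in the authors' deposited table. These sites lie 728 and 877 nt downstream of the annotated 5' splice site. RefSeq also places a NOVA1 start at 26596097, which is 476 and 327 nt downstream of them. A further unannotated 5' splice site at 26596945 changed by 0.5 points in the authors' deposited table, so the unannotated sites did not all move one way. The cluster's adjusted p was 0.00194 in the authors' deposited table. It ends at an exon of 144 nt, or 141 nt where an unannotated 3' splice site at 26595550 is used, and both introns into that site changed by -0.1 points in the authors' deposited table.

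The long intron that follows, from 26480143 to 26595410, joins the 144-nt exon to one of 167 nt. Its share changed by 10.5 points in the authors' deposited table (adjusted p = 0.018 for the cluster of 14 introns). The other 13 introns of the cluster have unannotated splice sites inside the long intron, and their changes summed to -10.6 points. The largest of them, from 26480143 to 26549680, changed by -5.2 points, and its partner from 26549781 to 26595410 by -2.2 points, in the authors' deposited table. Together they bound an unannotated exon of 102 nt, whose introns on both sides lost share while the intron that skips it gained.

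The RefSeq promoter windows (GRCh38.p14) hold 3 NOVA1 starts, and the window around the start at 26553430 covers 3 of these unannotated splice sites. It shows letter by letter 1 unannotated stretch of 69 nt between 2 listed introns. This stretch is here called an exon although no listed intron joins the far ends of those 2 introns. Other listed introns span it, such as that from 26553444 to 26554279 (-0.2 points). The stretch below is chr14:26553422-26553610 on the minus strand, written in the direction of transcription, with the exon (26553482 to 26553550) in capitals:
NOVA1 exon: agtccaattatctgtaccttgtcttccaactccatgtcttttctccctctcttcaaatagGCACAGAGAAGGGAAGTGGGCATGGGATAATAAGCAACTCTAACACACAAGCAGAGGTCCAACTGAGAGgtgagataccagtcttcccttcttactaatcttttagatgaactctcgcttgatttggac
The letters before the capitals end in AG and those after them begin with GT, the usual ends of an intron. A further unannotated 3' splice site at 26553444, which lies 14 nt upstream of the RefSeq start, is also preceded by AG. The introns at the edges of the 69-nt exon had values of -0.5 and -0.2 points in the authors' deposited table, so its sequence shows what such an exon looks like and not a large change. The printed letters also show how the coordinates are to be read: both positions given for an intron are the exon bases next to it.

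**Figure D2:**
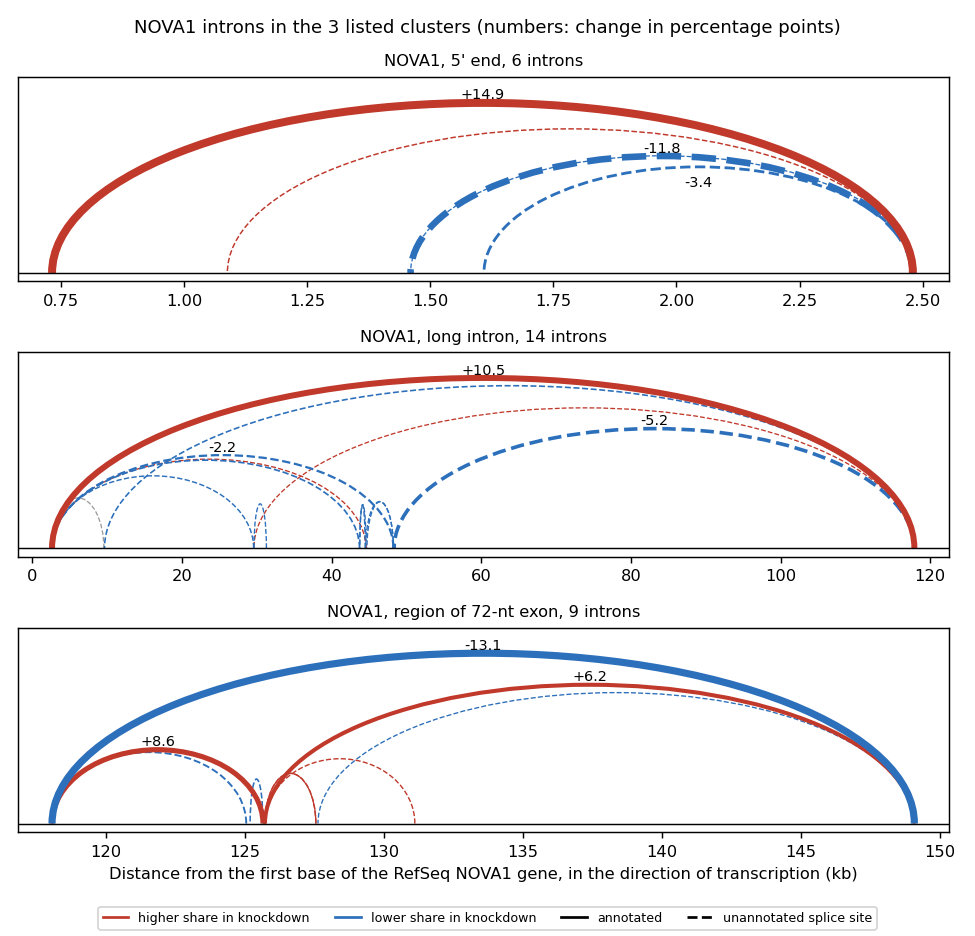
Arcs join the splice sites of each NOVA1 intron in its 3 listed clusters, by distance from the first base of the RefSeq gene (x axis, kb; arc height has no unit, and line width grows with the change; a grey arc has a change of 0). Solid annotated arcs of 14.9 and 10.5 points are higher in knockdown at the 5' end and the long intron, and the solid arc of -13.1 points that skips the 72-nt exon is lower.

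NOVA2, the NOVA paralog of the developing cortex, had 1 cluster on the minus strand of chromosome 19. The annotated intron from 45953946 to 45961010 changed by -4.0 points and an intron from an unannotated 5' splice site at 45959876 by 4.0 points in the authors' deposited table (adjusted p = 0.0111). The unannotated site lies 1134 nt downstream of the annotated one. In the NOVA1 clusters with the largest loss of unannotated introns the direction was the opposite, and no test of the difference between the genes can be made from these tables.

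SRRM4, the activator of neuronal microexons, itself had an unannotated exon of 16 nt whose flanking introns had a higher share in the knockdown. Whether control neurons also use it is not given. The exon spans 119144539 to 119144554 on the plus strand of chromosome 12, inside the annotated intron from 119130834 to 119145381. The intron that skips it changed by -11.0 points, the intron before it by 5.7 points and the intron after it by 4.5 points in the authors' deposited table (adjusted p = 0.023). The last intron of the cluster, into an unannotated 3' splice site at 119132299, changed by 0.8 points in the authors' deposited table. All 3 introns with unannotated splice sites thus had a higher share and the annotated intron a lower one. A RefSeq long noncoding gene, LOC112268101, overlaps this exon, and its strand was not used here.

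SRRM4 was also the member with a cryptic polyadenylation site, one little used in control neurons. The site at 119163271 lies 220 nt past the RefSeq end of the gene and is labelled a 3'UTR extension in the authors' deposited table. Its usage was 0.897% in control and 13.4% in the knockdown in the authors' deposited table, with 1 value per group and so no error. Extension sites made up 35.0% of the 457 cryptic sites, and their median usage was 2.76% in control and 18.2% in the knockdown. Among the 160 extension sites SRRM4 had the 12th lowest control usage and ranked 142 by knockdown usage. Its ratio of knockdown to control usage was 15.0, against a median of 7.27. The table holds sites with low usage in control and higher usage in the knockdown only, down to 10.7% in the knockdown, so a gain is a condition of being listed. Of the 151 extension sites past a RefSeq gene end, 4 lay closer to that end than the SRRM4 site, and the median distance was 2876 nt. The polyadenylation site lies 18717 nt downstream of the 16-nt exon, and whether the same transcripts carry both cannot be told from these tables. Per the labels' protocols the 3' end libraries were made with the QuantSeq REV kit, which primes on runs of A, and whether the SRRM4 and RBFOX1 sites lie beside such runs in the genome was not analysed here.

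RBFOX2, the most broadly expressed RBFOX gene, had 7 introns in 1 cluster near its 3' end, on the minus strand of chromosome 22. RBFOX genes are known to have alternative exons in the part that encodes the protein's C-terminal region. Around an annotated exon of 40 nt, from 35756105 to 35756144, the intron that skips it changed by -3.1 points, the intron before it by 3.2 points and the intron after it by 2.0 points in the authors' deposited table. The direction was that of inclusion, at an adjusted p of 0.000201 for the cluster in the authors' deposited table. All 4 introns with unannotated splice sites had a lower share, by at most 0.9 points, in the authors' deposited table.

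MBNL2, a muscleblind protein that sets exon choices as the brain matures, had 3 introns in 1 cluster on the plus strand of chromosome 13. They surround an annotated exon of 36 nt, from 97365136 to 97365171. The intron before the exon changed by -2.8 points, the intron after it by 6.0 points and the intron that skips it by -3.2 points in the authors' deposited table (adjusted p = 0.00973). The introns on the 2 sides of the exon moved in opposite directions, so the cluster does not give a plain gain or loss of this exon. The intron that skips it joins annotated sites that the annotation does not pair.

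PTBP2, the neuronal polypyrimidine tract-binding protein, had 1 cluster of 3 annotated introns around an exon of 34 nt on the plus strand of chromosome 1, from 96806419 to 96806452. PTBP2 has an alternative exon whose skipping, promoted by PTBP1, is known to send the transcript to decay. The intron before it changed by 0.7 points, the intron after it by -0.1 points and the intron that skips it by -0.6 points in the authors' deposited table (adjusted p = 0.0447). These were the smallest changes of any member cluster, and 1.20% of the 2994 listed clusters had a smaller largest change.

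**Figure D3:**
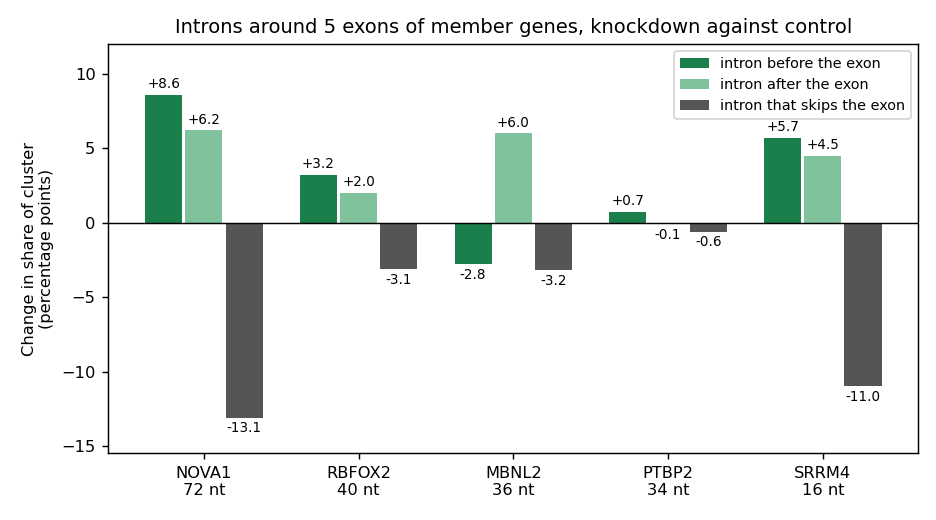
Bars give the change in share of cluster (y axis, percentage points, 1 value each, no error given in the tables) of the introns before, after and skipping 5 exons of member genes. NOVA1, RBFOX2 and SRRM4 have both flanking introns up and the skipping intron down, from 16 nt in SRRM4 to 72 nt in NOVA1, while MBNL2 and PTBP2 do not.

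Set against all listed clusters, the members were spread over the range of sizes. The largest intron change of a cluster was at least 10 points in 4 of the 8 member clusters (3 of NOVA1, 1 of SRRM4) and in 33.0% of all listed clusters. Its median was 8.25 points for the 8 and 6.4 points for all 2994. Introns with an unannotated splice site made up 31 of the 48 member introns (64.6%) and 6391 of all 15980 listed introns. Of these 31, 9 had a higher share, and 23 of the 31 belong to NOVA1, where 5 were higher and 17 lower. Over all clusters 51.4% of such introns were higher. Among clusters with both annotated and unannotated introns, the unannotated share summed to a loss in 4 of the 6 member clusters and in 39.6% of all. A loss of at least 10 points was found in 2 member clusters, both of NOVA1, and in 6.79% of all. A gain of at least 10 points was found in 1 member cluster, that of SRRM4, and in 14.0% of all.

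**Figure D4:**
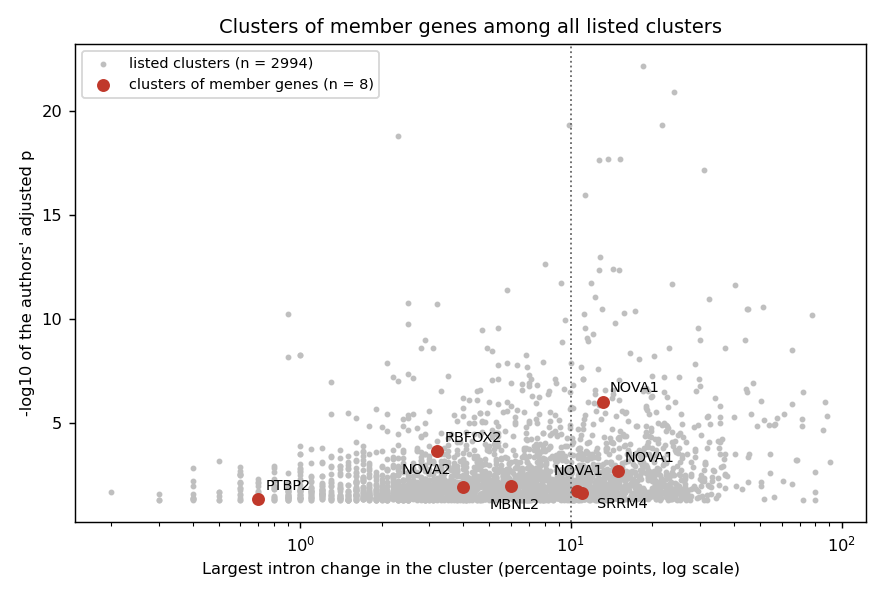
Listed splicing clusters by their largest intron change (x axis, percentage points, log scale) and the authors' adjusted p (y axis, -log10), with the 8 member clusters in red and the dotted line at 10 points. NOVA1 at 13.1 points has the smallest adjusted p of the members, and PTBP2 at 0.7 points lies near the left edge.

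RBFOX1, the RBFOX gene with the longest locus, was the only member in the 3' end-seq table. The authors' deposited table called it shorter with a change of -0.182 in the usage index, whose scale is not stated, at an adjusted p of 1.37e-12. The falling site at 7713339 on the plus strand of chromosome 16 lies 1 nt from the RefSeq end of the gene. The rising site at 5367007 lies 127286 nt inside the RefSeq gene. The nearest RBFOX1 start in the RefSeq promoter windows lies 652017 nt from that rising site. The falling and rising sites are 2346332 nt apart. That distance was the longest of the 2220 genes in the table, followed by 1669225 nt in PTPRD, and the median of genes called shorter was 9829 nt. By size the change ranked 194 of the 339 genes called shorter (15.3% of the table), whose median was -0.197.

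The rising site of RBFOX1 coincides with another gene model. NPM1P3, a pseudogene of the nucleolar protein gene NPM1, spans 5365780 to 5367008 inside the RBFOX1 locus, so its end lies 1 nt from the site. Rising sites within 10 nt of the edge of a RefSeq pseudogene were found for 10 of the 2220 genes (0.450%), and RBFOX1 and SOX6 were those called shorter. Reads ending there could come from RBFOX1, from the pseudogene or from transcripts of NPM1 itself, which cannot be told apart in the table, and the strand of the pseudogene was not used here, so the shortening of RBFOX1 is uncertain. NPM1 was not among the genes of the polyadenylation tables, but had 2 splicing clusters, with largest intron changes of 1.0 and 11.7 points and adjusted p of 5.32e-09 and 0.00447 in the authors' deposited table. The RBFOX1 site was not among the 457 cryptic sites, and no intron of RBFOX1 was listed.

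**Figure D5:**
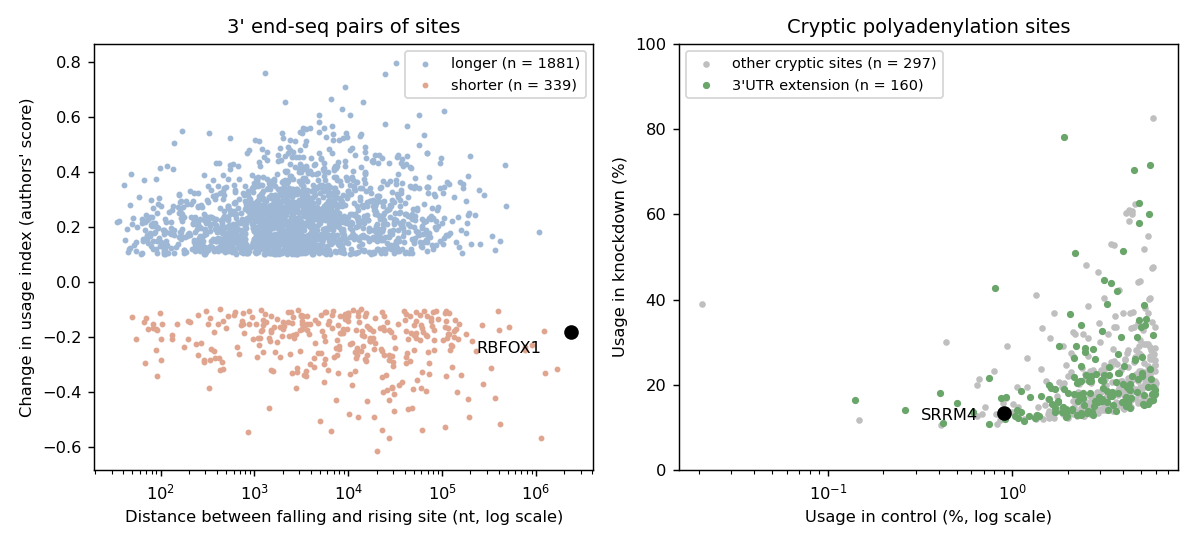
Left, genes of the 3' end-seq table by the distance between their falling and rising sites (x axis, nt, log scale) and the change in usage index (y axis), with RBFOX1 in black at the far right (2346332 nt). Right, cryptic sites by usage in control (x axis, percent, log scale) and in knockdown (y axis, percent), with SRRM4 in black at 0.897% and 13.4%.

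PTBP1 and RBFOX3, which were in none of the tables under their own names, have neighbours on the opposite strand whose transcript ends changed. PTBP1 encodes the repressor of neuronal exons. A cryptic site of PLPPR3 at 810907 on the minus strand of chromosome 19 lies inside the RefSeq PTBP1 gene, 1405 nt before its end, and its usage was 3.66% in control and 13.9% in the knockdown in the authors' deposited table. RBFOX3 encodes the antigen NeuN, a common marker of mature neurons, and is read from the minus strand of chromosome 17. ENGASE has its rising site at 79088596 on the plus strand, 749 nt from the 3' end of RBFOX3, and was called longer with a change of 0.150 in the authors' deposited table. Both sites are on the strand opposite to the member, so they are not its own ends.

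Other regulators and known exon targets were described from 3 lists, which overlap in a few genes, AGRN among them. The share of genes with a listed cluster is read in each against 11.2% of all RefSeq protein-coding genes and 22.9% of those over 150000 nt. Both shares include genes that these neurons may not express, so nothing particular to a list is read from a higher share. Of 32 other splicing regulators, not all of them tissue-specific, 11 had a listed cluster (3 of the 10 over 150000 nt). Their median largest change was 6.6 points over 19 clusters, beside 6.4 points over all. Annotated introns of CELF5 and ELAVL3, from families of neuronal RNA-binding proteins, lost share, -44.9 and -34.1 points, in the authors' deposited table. In the same clusters the changes of introns with an unannotated splice site summed to 45.0 points in CELF5 and 34.1 points in ELAVL3. An intron of ELAVL4 into an unannotated 3' splice site changed by -16.9 points and an intron of SRRM3, the SRRM4 paralog, with both splice sites unannotated by -15.4 points in the authors' deposited table. By 3' end-seq 3 of the 32 were longer and 0 shorter, and by RNA-seq 4 were distal and 0 proximal. Of all genes called, 15.3% were shorter by 3' end-seq and 95.0% were distal by RNA-seq, so longer and distal are also the common directions over all genes.

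Of 32 genes with exons regulated by PTBP1, PTBP2 or SRRM4, 1 of them a member (PTBP2), 19 had a listed cluster (8 of the 13 over 150000 nt), with a median largest change of 5.3 points over 29 clusters, beside 6.4 points over all. Annotated introns of the synaptic gene UNC13B and the agrin gene AGRN changed by -56.2 and -32.2 points, and one of the endocytic scaffold gene ITSN1 by -21.8 points, in the authors' deposited table. Introns with an unannotated splice site in the same clusters summed to 56.1 points in UNC13B, 32.2 points in AGRN and 1.0 points in ITSN1. In BIN1, a membrane-bending protein gene, a pair of annotated sites not joined in the annotation gained 16.7 points in the authors' deposited table. By 3' end-seq 5 of the 32 were longer and 1 (ITSN1) shorter, and by RNA-seq 3 were distal and 0 proximal. Of 41 genes with exons regulated by RBFOX, NOVA or MBNL proteins, 5 of them members, 26 had a listed cluster (16 of the 25 over 150000 nt), with a median of 4.8 points over 54 clusters, beside 6.4 points over all. AGRN, given above, belongs to this list too. In the authors' deposited table an annotated intron of the insulin receptor gene INSR changed by -85.6 points, one of the calcium channel gene CACNA1C by -51.7 points and one of the ankyrin gene ANK3 by -29.5 points. Introns with an unannotated splice site in those clusters summed to 85.6 points in INSR, 51.7 points in CACNA1C and 29.6 points in ANK3. The losses of these annotated introns were thus matched by unannotated splice sites. By 3' end-seq 4 of the 41 were longer and 1 (RBFOX1) shorter, and by RNA-seq 2 were distal and 0 proximal. The number of genes with a cryptic site was 0 in each of the 3 lists. Whether any of these exons is one that a member protein regulates was not tested.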

How the data were processed

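The tables used hold the authors' comparisons of shTDP-43 with shControl. Per the submitters' processing notes the hg38 build was used, with STAR, Salmon, SAMtools, fastp and DESeq2 (no roles or versions). The splicing tables came from leafcutter, per the file names, and for polyadenylation the caller is not given in the sources used here, nor is a version of leafcutter. The changes of usage index and of intron share are a score the authors deposited, the latter rounded to 0.1 points. Adjusted p-values were deposited by the authors, up to 0.05. Cryptic site usage is a deposited fraction per group, printed as a percent. Other deposited values are the number of introns per cluster. Depth is unknown.

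A table of 6 columns of per-sample gene values was not used, because its column names match no single sample. Gene expression of the members, planned with limma, was therefore not run.

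Members were matched by symbol, and positions, gene lengths and pseudogenes came from RefSeq (GRCh38.p14). An exon was read from an intron pair and the listed intron that skips it, except the NOVA1 stretch printed letter by letter. For that stretch no listed intron joins the far ends of the pair, although other listed introns span it. Under the reading of both positions as exon bases, 48.0% of 1999 annotated exons up to 300 nt long had a length divisible by 3, against 25.2% and 26.8% under the other readings. Of the cryptic sites, 2 were listed again and counted once. The exons described, the summary of unannotated introns, the bins of gene length and the limit of 300 nt were picked after values were seen. So were the pseudogene check, the neighbours and the counts of exons of up to 27 nt, among which SRRM4 was ranked. Exon finding was tested on simulated data. All 10 members were named, with up to 4 genes per list by largest intron change. Members and lists were chosen with earlier results of these data known. Alternatives were a stricter adjusted p, larger changes and RefSeq synonyms. Python 3.11.15, numpy 2.4.6, pandas 2.3.3 and matplotlib 3.10.9 were used.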

Additional observations from a re-analysis of the deposited data

How the results depend on the processing

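The number of members with a listed splicing cluster fell from 6 to 3 at an adjusted p up to 0.01 (NOVA1, RBFOX2 and MBNL2) and to 2 when an intron had to change by at least 10 points (NOVA1 and SRRM4). Member introns numbered 25 of 48 at the stricter adjusted p and 5 at a change of at least 10 points. RBFOX1 in 3' end-seq was kept at an adjusted p up to 0.01, but 0 members were left at an absolute change of at least 0.2. With genes whose rising site lies at the edge of a RefSeq pseudogene left out, an alternative chosen after seeing the data, 0 members were left as well. SRRM4 dropped out of the cryptic sites at a knockdown usage of at least 20%, which left 0 members. Each of these alternatives keeps fewer items by construction. RefSeq synonyms, and identifiers in 3' end-seq, added no member, and the RNA-seq polyadenylation table held 0 under every alternative run. Replicates could not be left out in turn, and the fits planned for gene expression (other pseudocount, filter, left-out replicates) were not run, since the tables used give no value per library. No paired analysis was possible because the results come from the authors' comparisons and carry no value per replicate.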

Other observations

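The unannotated exon of SRRM4 was 1 of 53 exons of up to 27 nt in 47 genes that had unannotated introns on both sides and a listed intron that skips them. Both flanking introns had a higher share in 24 of the 53 and a lower share in 22. By the fall of the skipping intron SRRM4 ranked 10 of 53, and the median change of the skipping intron was 0.5 points. Larger falls in the authors' deposited table included CAMK2B at -65.6 points for an exon of 25 nt, UNC13B at -56.2 points for an exon of 23 nt and SNX2 at -51.5 points for an exon of 12 nt, chosen after their values were seen. Annotated exons of up to 27 nt, the class that SRRM4 is known to act on, numbered 58 with a listed skipping intron. In 47 of them both flanking introns moved the same way, higher in 22 and lower in 25. These are counts over the listed clusters, without a test.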
